A study of Homo sapiens with 12 samples.

Results

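The serpin genes of the HepG2 cell line were taken as every row of the deposited count table whose gene symbol begins with SERPIN. That rule gave 37 genes of the 26485 in the table, of which 34 are protein coding and 3 are pseudogenes in RefSeq. HepG2 is an established cell line from a human liver tumour, and it secretes many of the proteins that the liver gives to plasma. RNA was sequenced from 12 wells of 4 stable HepG2 lines, and each line gave 3 wells, a to c. The lines Z2, Z5 and Z9 received CRISPR vectors named sgZHX3-2, sgZHX3-5 and sgZHX3-9, and their genotype label is ZHX3-depleted. The line Empty received an empty CRISPR vector, and its genotype label is WT. All 4 lines were made by lipofection, selected with blasticidin and grown in low-glucose DMEM with serum. There was 1 stable line per vector, and the labels do not say whether a line is a clone or a pool. P-values here rest on how wells of the same line vary, which may be technical, and no vector had a second, separately made line.

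Serpins fold around a flexible reactive loop that works as bait for a protease. When the protease cuts the loop, the serpin snaps into a new shape and traps the enzyme in a covalent complex. Hepatocytes secrete most plasma serpins, which hold back clotting, fibrin breakdown, complement and neutrophil proteases. A few family members have lost inhibition and carry hormones or help collagen to fold, and most clade B serpins stay inside cells.

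ZHX3, the zinc finger and homeobox gene to which the vectors are directed, averaged 34.5 ± 0.62 CPM in Z2, 32.9 ± 0.51 in Z5 and 34.3 ± 0.71 in Z9, against 33.03 ± 0.42 in Empty (SD, n = 3 wells each; CPM, counts relative to library size, on library sizes scaled by TMM, the trimmed mean of M values). Its mean log2 fold change over the 3 lines was 0.04 ± 0.04 (SE), with an edgeR adjusted p of 0.544. A CRISPR edit need not lower the RNA, and gene counts do not show edits, so this level does not check the genotype label. Library totals lay between 50864744 and 65428204 counts. All 10 hepatocyte markers were at 1 CPM or more, and their summed level was 41700 to 45500 CPM in Z2, 42800 to 44000 in Z5 and 39900 to 41900 in Z9, against 47600 to 49500 in Empty. For the mean of the 3 lines 3 of these markers rose (HP, FGB and APOA1) and 3 fell (ALB, APOB and APOH), and ALB, serum albumin, averaged 11520, 11480 and 11970 CPM in Z2, Z5 and Z9, against 17530 in Empty. Fibroblast markers summed to 21.8 to 32.8 CPM in the labelled lines and 24.7 to 26.1 in Empty, with DCN at 0 in every well. COL1A1 was called lower for the mean of the lines (log2 -0.70, edgeR adjusted p = 0.042). That call is lost without Empty a, Z2 c, Z5 a, Z5 c, Z9 a or Z9 b. Endothelial markers summed to 6.64 to 8.57 CPM in the labelled lines and 6.22 to 6.39 in Empty, with KDR and EMCN at 0 and CDH5 called higher. Immune markers summed to 1590 to 2160 CPM in the labelled lines and 1820 to 2000 in Empty, nearly all of it LYZ, with TYROBP at 0. The part of these markers in the serpin results was not tested. In bulk libraries, fewer cells of a type and less RNA per cell cannot be told apart.

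Counts were found for 29 of the 37 serpin genes. The 8 genes without a count in any well were the clade B genes SERPINB3, SERPINB4, SERPINB7, SERPINB10, SERPINB11, SERPINB12 and SERPINB13, and the clade I gene SERPINI2. A count of 0 allows up to 0.0459 to 0.0590 CPM per library, for counting error only. Another 4 genes had too few counts for a test. SERPINA2, a pseudogene next to SERPINA1, had 0 counts in Z2, 8 in Z5 and 7 in Z9, against 1 in Empty. SERPINB5, known as maspin, had 9, 10 and 15 counts in Z2, Z5 and Z9, against 4 in Empty. SERPINB2, an inhibitor of plasminogen activators, had 2, 1 and 2 counts, against 0 in Empty, and the pseudogene SERPINA13P had 1 count in all, in Empty. The other 25 genes passed the filter on low counts and were tested.

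The serpin transcripts took 1.73% to 2.02% of all counts in Z2 wells, 1.72% to 1.91% in Z5 wells and 1.64% to 1.77% in Z9 wells, against 1.51% to 1.65% in Empty wells. These shares depend largely on SERPINA1. In wells a, SERPINA1 alone gave 523065 of 909575 serpin counts in Z2 and 587093 of 998501 in Z5. It gave 513830 of 869955 in Z9, against 416788 of 768115 in Empty. Per kilobase of exon, SERPINA1 was the highest, with a mean of 2064 CPM per kb over the 12 wells. SERPINF2 was at 232.3 CPM per kb and the antichymotrypsin gene SERPINA3 at 219. The glia-derived nexin gene SERPINE2 lay far below, at 12.3, and SERPINB8 at 0.977. The lowest tested genes were SERPINB9P1, SERPINA9 and SERPINE3, at 0.0537 to 0.101 CPM per kb.

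**Figure D1:**
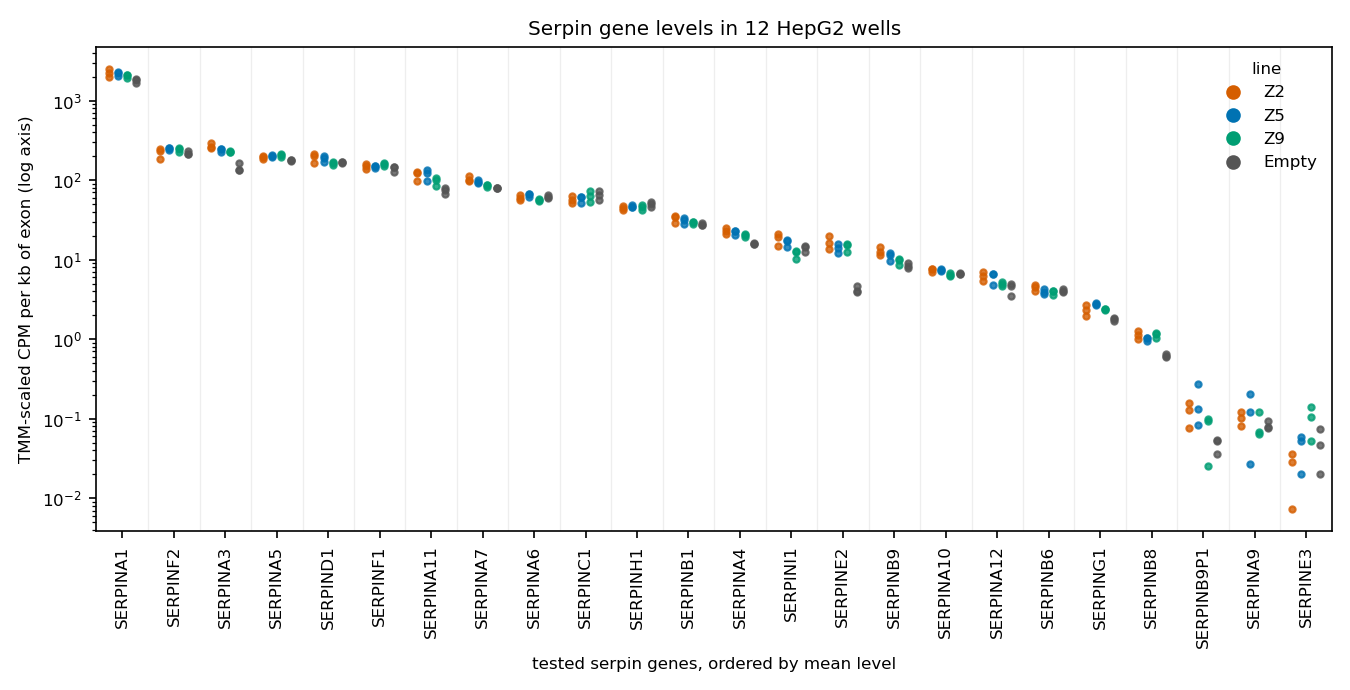
Level of tested serpin genes in TMM-scaled CPM per kilobase of exon (vertical log axis), with a point for each of the 12 wells coloured by line. Levels ran from 2064 CPM per kb for SERPINA1 down to 0.0537 for SERPINE3 (means over 12 wells), a range far wider than the separation of the lines in any gene shown.

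Most serpin changes were increases, and 5 genes were higher in each labelled line: SERPINE2, SERPINA3, SERPINA4, SERPINB8 and SERPING1. In Z2 12 of 25 tested serpin genes rose and 0 fell, while 23.9% of all 15289 tested genes were called, 12.4% higher and 11.5% lower (edgeR's quasi-likelihood test, Benjamini-Hochberg adjusted p under 0.05 over all tested genes). In Z5 12 rose and 0 fell, against 15% of all genes called, 8.27% higher and 6.68% lower. In Z9 6 rose and 1 fell, against 19.2% of all genes called, 9.66% higher and 9.58% lower. The lower Z9 count depends on the fit. When only the groups compared were fitted, 12, 12 and 11 serpin genes were called in Z2, Z5 and Z9. With the replicate letter as a block the counts were 13, 15 and 12, and with the DESeq2 Wald test 12, 11 and 10. For the mean of the 3 lines, 11 rose and 0 fell, against 25.6% of all genes called, 13% higher and 12.6% lower. The median log2 fold change of the 25 genes was 0.28 in Z2, 0.25 in Z5, 0.17 in Z9 and 0.16 for the mean, and that of all tested genes was between 0.00 and 0.01. Being higher in each of the 3 lines applied to 5 of 25 serpin genes and to 4.98% of all tested genes. These comparisons share the 3 Empty wells, so their calls are not independent of each other.

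**Figure D2:**
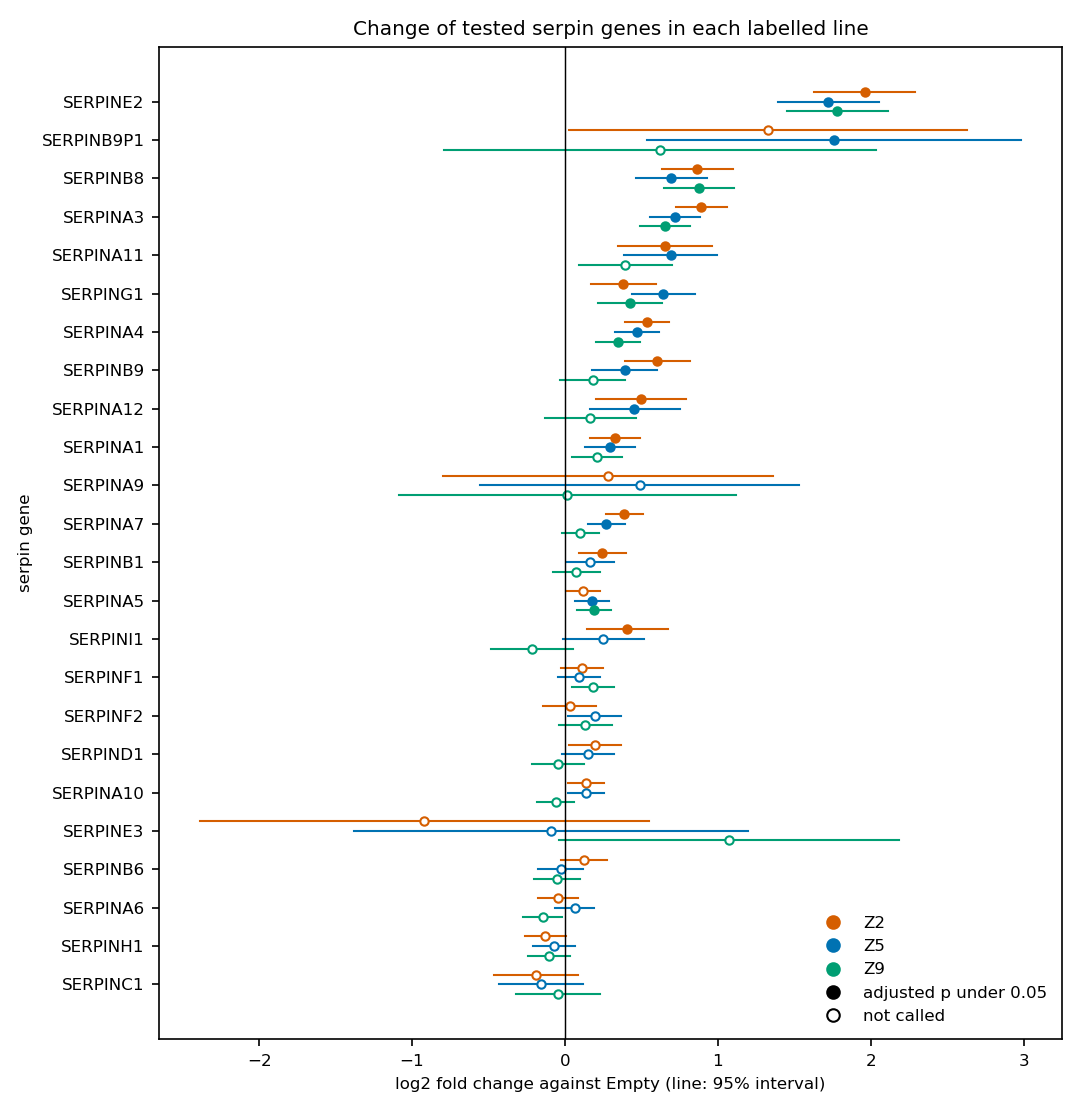
Log2 fold change of tested serpin genes in Z2, Z5 and Z9 against Empty (horizontal axis; line, 95% interval), with filled points where the edgeR adjusted p was under 0.05. SERPINE2 lies at 1.72 to 1.96 in the 3 lines, the pseudogene SERPINB9P1 reaches 1.76 in Z5 with a wide interval, and SERPINA3 lies at 0.66 to 0.89.

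Clade A holds most protease inhibitors of blood plasma and the hormone carriers, and 7 of its 10 tested genes rose for the mean of the lines, beside 13% of all tested genes. Of these 7 calls, those of SERPINA3, SERPINA4 and SERPINA11 stood under every alternative, and the others did not. SERPINA1 encodes alpha-1-antitrypsin, which inhibits neutrophil elastase. It had 9829, 10740 and 12230 CPM in Z2 wells, 10110, 10800 and 11260 in Z5 wells and 9476, 10390 and 10390 in Z9 wells, against 8178, 8785 and 9228 in Empty wells. Every labelled well was above every Empty well. The increase was 0.33 ± 0.08 on the log2 scale in Z2 (edgeR adjusted p = 0.00591) and 0.30 ± 0.08 in Z5 (adjusted p = 0.0155). The Z5 call is lost without Empty a, Z5 b or Z5 c (adjusted p of 0.062 to 0.0967). In Z9 the change was 0.21 ± 0.08 (adjusted p = 0.0674), short of the threshold but past it under 7 alternative settings. For the mean of the 3 lines the call is lost without Empty a (adjusted p = 0.0522).

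SERPINA1 lies on chromosome 14, at 94376747 to 94390635 on the minus strand of GRCh38.p14, and RefSeq gives it more than 1 start. The 250 bases before the start nearer to the coding exons and before the outer start are shown because the gene is the most abundant serpin transcript. Capitals mark the letters GTTAAT, only a part of an HNF1 site, in the first and CCGCCC, a GC box on the other strand, in the second.
SERPINA1 promoter, chr14:94388603-94388852, minus strand: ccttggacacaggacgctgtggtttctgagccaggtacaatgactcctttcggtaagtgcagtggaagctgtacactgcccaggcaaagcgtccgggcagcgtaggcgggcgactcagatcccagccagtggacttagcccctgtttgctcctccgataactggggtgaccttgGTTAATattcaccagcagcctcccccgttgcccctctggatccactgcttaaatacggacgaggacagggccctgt
SERPINA1 outer start, chr14:94390636-94390885, minus strand: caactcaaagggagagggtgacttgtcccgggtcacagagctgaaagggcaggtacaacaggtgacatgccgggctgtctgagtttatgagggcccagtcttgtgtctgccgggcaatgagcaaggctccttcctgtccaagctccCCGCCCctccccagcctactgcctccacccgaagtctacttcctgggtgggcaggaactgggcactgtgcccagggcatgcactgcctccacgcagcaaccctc
GTTAAT was searched on both strands and occurs in 7 of the 41 serpin windows (17.1%) and in 6.23% of all 35116 promoter windows of the same length. In SERPINA1 it stands 76 bases before the start, and in SERPINA4 75 bases before. The other genes with it are SERPINA6, SERPINA7, SERPINA10, SERPINB12 and SERPINI2. In the main fit SERPINA7 rose in Z2 and Z5, and SERPINA6 and SERPINA10 were not called against Empty. SERPINB12 and SERPINI2 had no counts.

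SERPINA3 encodes alpha-1-antichymotrypsin, an acute-phase protein that inhibits chymotrypsin-like proteases. It had 1300, 1257 and 1460 CPM in Z2, 1115, 1217 and 1232 in Z5 and 1122, 1174 and 1114 in Z9, against 677.3, 663.2 and 825.5 in Empty. No labelled well reached down to the highest Empty well. The increase was 1.86-fold in Z2, 1.65-fold in Z5 and 1.57-fold in Z9 (log2 0.89 ± 0.08, 0.72 ± 0.08 and 0.66 ± 0.08; edgeR adjusted p of 5.6e-07, 6.56e-06 and 1.54e-05).

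SERPINA4 encodes kallistatin, which inhibits tissue kallikrein. Its level was 49.3, 54.0 and 58.4 CPM in Z2, 47.0, 54.0 and 53.7 in Z5 and 44.5, 49.8 and 47.8 in Z9, against 37.1, 37.3 and 37.2 in Empty. The Empty wells were nearly equal, and all labelled wells were higher. The mean increase was 1.37-fold (log2 0.45 ± 0.06, edgeR adjusted p = 1.89e-05). The promoter windows of both genes are shown side by side because both rose in every line and both lie on the plus strand of the same cluster. Capitals again mark GTTAAT, which is in the SERPINA4 window. Of the motifs searched, none is in the SERPINA3 window.
SERPINA3, chr14:94612141-94612390, plus strand: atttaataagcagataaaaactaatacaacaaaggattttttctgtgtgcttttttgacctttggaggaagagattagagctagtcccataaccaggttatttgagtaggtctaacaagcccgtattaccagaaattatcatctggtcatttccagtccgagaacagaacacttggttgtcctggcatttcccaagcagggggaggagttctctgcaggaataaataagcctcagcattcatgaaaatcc
SERPINA4, chr14:94561192-94561441, plus strand: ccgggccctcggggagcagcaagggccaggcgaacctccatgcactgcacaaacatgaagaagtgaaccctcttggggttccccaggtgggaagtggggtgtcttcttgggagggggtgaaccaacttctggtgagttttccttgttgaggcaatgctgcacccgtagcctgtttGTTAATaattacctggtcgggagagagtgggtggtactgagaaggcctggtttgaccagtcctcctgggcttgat
The other motifs searched on both strands were the TATA box TATAAA, the CCAAT box CCAAT, the C/EBP letters TTGCNNAA, the STAT letters TTCNNNGAA, the heat shock letters GAANNTTC, the GC box GGGCGG, the AP-1 letters TGANTCA and the HNF4 letters CAAAGTCCA. They occur in 10.7%, 32%, 9.05%, 6.57%, 5.78%, 42.6%, 6.57% and 0.325% of all windows, and in 8, 8, 6, 8, 4, 12, 9 and 0 of the 41 serpin windows.

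Of the other clade A genes, SERPINA11, of unclear function in humans, had 142.6, 189.3 and 179.3 CPM in Z2, 143.8, 180.9 and 200.1 in Z5 and 125.0, 147.2 and 155.0 in Z9, against 97.6, 117.7 and 109.5 in Empty. The wells did not overlap, and the gene rose in Z2 and Z5 (log2 0.66 ± 0.14 and 0.69 ± 0.14, edgeR adjusted p = 0.00638 and 0.00709). In Z9 its change of 0.40 ± 0.14 had an adjusted p of 0.0692, and it was called under 7 alternative settings (adjusted p up to 0.0493). SERPINA12, vaspin, a kallikrein inhibitor known from fat tissue, rose in Z2 and Z5 by 0.50 ± 0.14 and 0.46 ± 0.14 (adjusted p = 0.0177 and 0.0377). Its mean levels were 14.1, 13.7 and 11.2 CPM in Z2, Z5 and Z9, against 9.95 in Empty. The Z2 call is lost without Empty a, Z2 b or Z2 c (adjusted p of 0.0686 to 0.0797), and the Z5 call without Empty a, Empty b, Z2 b, Z5 b, Z5 c or Z9 b (0.0505 to 0.162). The call of SERPINA12 for the mean of the lines is lost without Empty a (adjusted p = 0.181), Empty b (0.0501) or Z2 b (0.0538).

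SERPINA5 is the protein C inhibitor, which blocks activated protein C and several other proteases with heparin as cofactor. Its mean levels of 730.6 ± 35.8, 761.7 ± 16.2 and 768.6 ± 31.4 CPM in Z2, Z5 and Z9 were near the 673.3 ± 10.7 of Empty (SD, n = 3). It rose by 1.12-fold for the mean of the lines (log2 0.16 ± 0.04, edgeR adjusted p = 0.0109), a call lost without Empty b (adjusted p = 0.0627). It was called higher in Z5 (adjusted p = 0.0299), which is lost without any of the Empty wells, Z5 b or Z5 c (0.0789 to 0.124). It was also called higher in Z9 (0.0169), which is lost without Empty b, Z9 a or Z9 b (0.0656 to 0.0694). SERPINA4 and SERPINA5 share exon bases on the same strand, and a read-through transcript spans SERPINA5 and SERPINA3, so reads there may be split between them. SERPINA10, the protein Z-dependent inhibitor of factor X, was not called for any line against Empty, with 40.4, 40.5 and 35.2 CPM in Z2, Z5 and Z9, against 36.7 in Empty. Without Z2 a it was called higher in Z2 (edgeR adjusted p = 0.0274), and SERPINA5 was called there without Z2 b (0.0306). SERPINA9, known from germinal centre B cells, had only 36 to 50 counts per labelled line and 37 in Empty, and was not called.

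Of the hormone carriers, SERPINA7 rose in Z2 and Z5, and SERPINA6 was not called. SERPINA7 encodes thyroxine-binding globulin. It had 264.3, 311.2 and 278.2 CPM in Z2, 255.0, 271.7 and 260.2 in Z5 and 226.4, 237.9 and 235.8 in Z9, against 217.7, 215.7 and 219.5 in Empty. It rose in Z2 by 1.31-fold and in Z5 by 1.21-fold (edgeR adjusted p = 0.000131 and 0.00405), and in Z9 the ratio was 1.07 (adjusted p = 0.237). SERPINA6, corticosteroid-binding globulin, had 111.6, 120.2 and 103.9 CPM in Z2, Z5 and Z9, against 114.9 in Empty, and was not called for any line against Empty, although it was called lower in Z9 when only Z9 and Empty were fitted (adjusted p = 0.0381). Its mean log2 fold change was -0.04 with a 95% interval of -0.15 to 0.06. Of 6 tested genes for carriers and receptors of hormones and retinol, 1 rose and 4 fell, with a median log2 fold change of -0.24 for the mean of the lines, where 13% of all tested genes rose and 12.6% fell. On the log2 scale the carriers ALB and RBP4 fell by 0.59 and 0.21, the thyroid hormone receptor gene THRB by 0.28 and the retinol receptor gene STRA6 by 0.41, while NR3C1, the glucocorticoid receptor, rose by 0.25.

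SERPINE2 had the largest mean log2 fold change of the 25 tested genes. Its product, glia-derived nexin or protease nexin 1, inhibits thrombin, plasmin and plasminogen activators at the cell surface, and it is cleared through the receptors LRP1 and VLDLR. The gene had 120.2, 174.9 and 142.5 CPM in Z2, 109.2, 124.1 and 138.4 in Z5 and 109.5, 136.2 and 141.1 in Z9, against 34.75, 41.51 and 36.22 in Empty. The lowest labelled well stood well above the highest Empty well. The increase was 3.89-fold in Z2 (95% interval 3.09 to 4.90), 3.30-fold in Z5 (2.63 to 4.15) and 3.44-fold in Z9 (2.73 to 4.32). The mean log2 fold change was 1.82 ± 0.13 (edgeR adjusted p = 3.19e-06) and stayed called under every alternative tried.

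SERPINE2 lies on chromosome 2, at 223975045 to 224039286 on the minus strand of GRCh38.p14, and no annotated exon of another gene overlaps its exons. Windows were available for an inner and an outer start, shown because the gene had that largest change. Both starts lie inside the gene span, and no window before its outermost end at 224039286 was available or searched. Capitals mark CCAAT or its complement ATTGG, and GGGCGG or its complement CCGCCC.
SERPINE2 inner start, chr2:224031479-224031728, minus strand: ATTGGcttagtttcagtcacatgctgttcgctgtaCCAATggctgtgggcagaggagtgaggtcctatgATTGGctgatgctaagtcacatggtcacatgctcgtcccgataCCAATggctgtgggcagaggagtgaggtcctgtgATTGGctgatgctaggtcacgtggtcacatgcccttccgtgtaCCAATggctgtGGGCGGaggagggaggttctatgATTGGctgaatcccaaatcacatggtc
SERPINE2 outer start, chr2:224038641-224038890, minus strand: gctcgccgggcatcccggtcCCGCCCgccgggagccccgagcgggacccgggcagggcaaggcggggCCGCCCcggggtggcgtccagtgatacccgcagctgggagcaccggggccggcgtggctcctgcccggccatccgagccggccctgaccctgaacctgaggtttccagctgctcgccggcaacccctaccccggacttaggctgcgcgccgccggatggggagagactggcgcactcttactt
The inner window holds CCAAT or ATTGG 7 times, alternating between the strands, at 27, 61, 104, 138, 181, 215 and 250 bases before the start. At least 7 matches are found in 7 of 35116 windows (0.0199%). That cut-off was set at the largest number in any serpin window, so it was picked from the window described. The letters between the matches recur in near-identical copies along the window, so the matches are not separate from each other. Gene-level counts do not tell which of the starts is used in HepG2 cells, and the outer window has GC boxes instead.

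**Figure D3:**
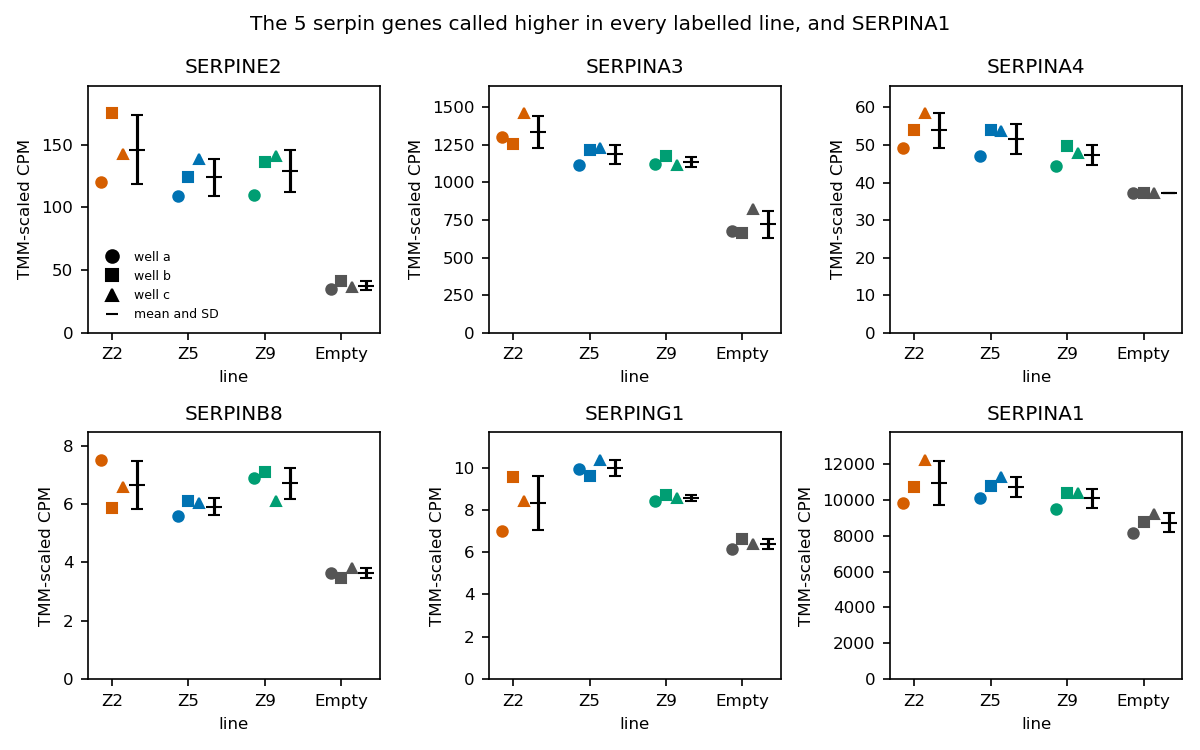
TMM-scaled CPM (vertical axes from 0) of SERPINE2, SERPINA3, SERPINA4, SERPINB8, SERPING1 and SERPINA1 in the lines Z2, Z5, Z9 and Empty, with a marker per well and the mean and SD of 3 wells. In each of these genes all labelled wells lie above all Empty wells, and relative to the Empty level the gap is widest for SERPINE2.

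Antithrombin, heparin cofactor II and alpha-2-antiplasmin, inhibitors of clotting and fibrin breakdown, were not called for any line against Empty. SERPIND1 was called higher in Z2 (edgeR adjusted p = 0.00271) and for the mean (0.0497) without Z2 a. SERPINF2 was called higher in Z5 without Z2 b (0.0107) or when only Z5 and Empty were fitted (0.0098), and for the mean without Z2 b (0.00889). SERPINC1, antithrombin, had 100.4 ± 10.4, 102.5 ± 10.3 and 110.7 ± 17.2 CPM in Z2, Z5 and Z9, against 114.3 ± 14.4 in Empty (SD, n = 3). SERPIND1, heparin cofactor II, had 489.5 ± 63.7, 474.6 ± 38.9 and 413.3 ± 20.3 CPM, against 426.9 ± 9.88 in Empty. SERPINF2, alpha-2-antiplasmin, had 523.1 ± 75.2, 585.8 ± 23.0 and 561.5 ± 31.6 CPM, against 511.7 ± 25.3 in Empty. The 95% intervals of the mean fold change were 0.783 to 1.07 for SERPINC1, 0.974 to 1.18 for SERPIND1 and 0.984 to 1.20 for SERPINF2, so larger changes in either direction are outside them. SERPING1 is the C1 inhibitor, which blocks complement and contact-system proteases. It had 7.01, 9.57 and 8.41 CPM in Z2, 9.95, 9.61 and 10.4 in Z5 and 8.41, 8.70 and 8.58 in Z9, against 6.16, 6.60 and 6.39 in Empty. It rose in each line, by 1.30-fold, 1.56-fold and 1.34-fold (edgeR adjusted p = 0.0106, 0.000254 and 0.00626), although the Z2 call is lost without Z2 b (0.0508).

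Among the intracellular serpins of clade B, SERPINB8 and SERPINB9 rose. SERPINB8, which inhibits furin in vitro, had 7.52, 5.86 and 6.60 CPM in Z2, 5.58, 6.12 and 6.05 in Z5 and 6.90, 7.10 and 6.12 in Z9, against 3.65, 3.48 and 3.81 in Empty. The labelled wells were higher in every case, by 1.82-fold, 1.62-fold and 1.84-fold (edgeR adjusted p = 2.57e-05, 0.000342 and 2.2e-05). An antisense gene overlaps its exons, and without a stated strand setting its reads cannot be told apart from SERPINB8. It is the only one of the 10 genes of its chromosome 18 cluster with enough counts for a test. Its promoter window holds the most kinds of motif among the genes shown here, and is given for that reason. Capitals mark, in order, a STAT match, an AP-1 match, CCAAT, a pair of overlapping TATAAA matches on opposite strands, a C/EBP match and a second AP-1 match.
SERPINB8, chr18:63969831-63970080, plus strand: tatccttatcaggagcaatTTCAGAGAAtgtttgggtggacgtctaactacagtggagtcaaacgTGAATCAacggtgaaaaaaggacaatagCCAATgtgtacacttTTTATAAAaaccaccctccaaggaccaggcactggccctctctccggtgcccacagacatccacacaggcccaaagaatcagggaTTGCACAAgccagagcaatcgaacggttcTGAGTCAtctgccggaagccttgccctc
SERPINB9 inhibits granzyme B. It had 47.0, 59.9 and 51.2 CPM in Z2, 39.9, 47.5 and 49.2 in Z5 and 35.1, 41.6 and 41.3 in Z9, against 32.1, 37.5 and 34.5 in Empty. It rose in Z2 and Z5 by 1.52-fold and 1.31-fold (edgeR adjusted p = 0.000618 and 0.0163), and the Z9 wells overlapped Empty (adjusted p = 0.227). Its Z5 call is lost without Empty a, Z5 b or Z5 c (0.0717 to 0.0826).

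SERPINB1, an inhibitor of neutrophil proteases, rose in Z2 by 0.25 ± 0.07 on the log2 scale (edgeR adjusted p = 0.0213), with 101.6, 96.1 and 90.3 CPM in Z2, Z5 and Z9, against 85.7 in Empty. That call is lost without Empty a, Empty c, Z2 b or Z2 c (adjusted p of 0.0642 to 0.101). For the mean of the lines it was called without Z2 a (0.0101) or Z5 a (0.0184), and in Z5 without Z5 a (0.0327). SERPINB6, a general intracellular inhibitor, was at 58.4, 52.5 and 51.6 CPM in Z2, Z5 and Z9, against 53.5 in Empty. It was called in no comparison of the main fit. Without Z2 a it was called lower in Z9 than in Z2 (edgeR adjusted p = 0.0272), and also with the replicate letter as a block (0.0327). SERPINB9P1, a pseudogene of SERPINB9, had 28, 40 and 18 counts, against 12 in Empty. Its Z5 call (adjusted p = 0.0496) is lost under 10 alternatives. How reads that match more than 1 gene were counted is not given in the sources used here, so the counts of this pseudogene are uncertain.

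None of the other family members was called for the mean of the lines. SERPINH1 is the collagen chaperone of the endoplasmic reticulum. It had 281.9 ± 15.4, 293.2 ± 7.82 and 286.9 ± 21.8 CPM in Z2, Z5 and Z9, against 308.0 ± 22.0 in Empty (SD, n = 3), and its mean log2 fold change was -0.10 with a 95% interval of -0.21 to 0.01. SERPINF1, pigment epithelium-derived factor, which restrains blood vessel growth, had 459.1, 454.6 and 483.7 CPM, against 425.8 in Empty (mean adjusted p = 0.0863, edgeR). Without Z2 b it was called for the mean (adjusted p = 0.0224) and in Z9 (0.019), and in Z9 it was also called without Z2 c (0.0497). The Z9 call was further made with at least 1 CPM in 3 libraries (0.0477) and when only Z9 and Empty were fitted (0.03). The DESeq2 Wald test called it there too (0.0407). SERPINI1, neuroserpin, which inhibits tissue plasminogen activator in neurons, had 36.3, 50.4 and 46.3 CPM in Z2, 35.3, 41.6 and 42.5 in Z5 and 24.8, 30.2 and 31.3 in Z9, against 29.7, 35.9 and 34.5 in Empty. It rose in Z2 (1.33-fold, edgeR adjusted p = 0.0296). That call is lost without Empty a, Empty c, Z2 b or Z2 c (0.0578 to 0.155) or without a filter on low counts (0.0792). In the main fit SERPINI1 was called in neither other line. With the replicate letter as a block, edgeR called it higher in Z5 (adjusted p = 0.00508), lower in Z9 (0.0125) and higher for the mean (0.0286). SERPINE3, whose exons overlap INTS6 on the other strand, had 10, 19 and 43 counts in Z2, Z5 and Z9, against 21 in Empty, and was not called.

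The labelled lines differed among themselves for 4 serpin genes, and in each the Z9 level was lower than the Z2 level. Against Z2, Z9 had 4 genes lower and 0 higher, with 5.17% of all tested genes called and 3.21% lower. SERPINI1 was 0.649-fold (log2 -0.62 ± 0.12, edgeR adjusted p = 0.0214), SERPINB9 0.746-fold (-0.42 ± 0.10, adjusted p = 0.0312), SERPINA7 0.820-fold (-0.29 ± 0.06, adjusted p = 0.0151) and SERPINA10 at -0.20 ± 0.06 (adjusted p = 0.0499). In each the 3 Z9 wells lay below the 3 Z2 wells, as also in uncalled serpin genes such as SERPINA3 and SERPINA12. The share of all tested genes with this order was not counted. Of these 4 calls 0 stand under every alternative. Against Z5, Z9 had 0 genes called (8 at an unadjusted p under 0.05), with 1.52% of all genes called, 1.09% lower. Between Z5 and Z2 0 were called (4 at an unadjusted p under 0.05), with 0.00654% of all genes called. The Z9 mean lay below both the Z2 and the Z5 mean for 16 of 25 serpin genes and for 36.9% of all tested genes. SERPINE2 was called between none of the labelled lines, with a Z9 over Z2 ratio of 0.884 (95% interval 0.710 to 1.10).

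The serpin cluster of chromosome 14 spans 366.5 kb and holds 11 of the 37 genes. Of its 9 tested genes 6 rose and 0 fell, with a median log2 fold change of 0.28 for the mean of the lines, beside 13% of all tested genes higher and 12.6% lower. Among 10 tested genes within 500 kb on either side, 0 rose and 1 fell, PRIMA1 at -0.60, and the median was 0.12. Of these flanking genes only DICER1, at 0.02, lies on the telomeric side, beyond SERPINA3. Within the cluster SERPINA10 and SERPINA6, at its centromeric end, were not called, and SERPINA1, SERPINA11, SERPINA12, SERPINA4, SERPINA5 and SERPINA3 were. The calls of SERPINA11, SERPINA4 and SERPINA3 stood under every alternative, and those of SERPINA1, SERPINA12 and SERPINA5 did not. The cluster of chromosome 6 has 4 serpin genes tested, of which SERPINB9 rose, beside 12 tested flanking genes with 2 higher and 1 lower. In the cluster of chromosome 18 the 1 tested serpin gene, SERPINB8, rose, and so did 2 of 4 tested flanking genes, BCL2 at 0.55 and KDSR at 0.17 on the log2 scale. The neighbours SERPINF2 and SERPINF1 on chromosome 17 had 0 calls, beside 20 tested flanking genes with 4 higher and 1 lower.

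**Figure D4:**
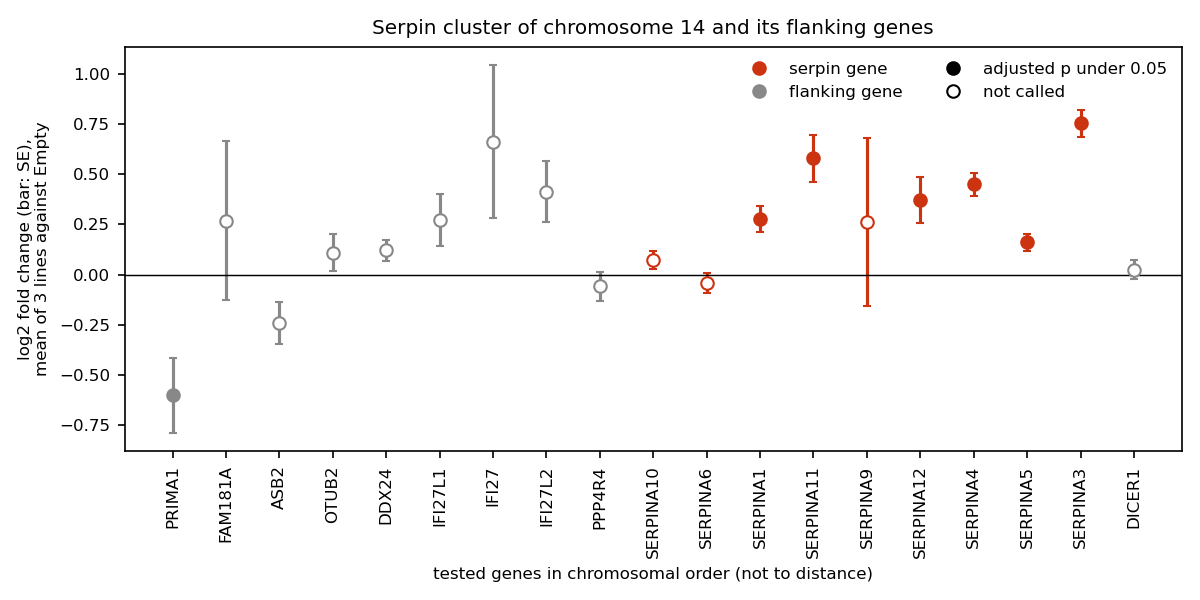
Log2 fold change for the mean of Z2, Z5 and Z9 against Empty (vertical axis; bar, SE) of the tested serpin genes of chromosome 14 and of tested genes within 500 kb, in chromosomal order. Serpin genes from SERPINA1 to SERPINA3 are filled except SERPINA9, and 1 flanking gene, PRIMA1, is filled below 0.

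Proteases and partners of the serpins were set beside them for the mean of the 3 lines, where 13% of all tested genes rose and 12.6% fell. Of 23 tested target proteases 7 rose and 5 fell, with a median log2 fold change of 0.09. PLG, plasminogen, stood at 18.5, 22.4 and 21.7 CPM in Z2, Z5 and Z9, against 1.66 in Empty (log2 3.63 ± 0.13, edgeR adjusted p = 1.9e-11). On the log2 scale HABP2, a plasma protease that activates factor VII, fell by 2.26, TMPRSS6, which restrains hepcidin, fell by 0.36, and the lysosomal protease CTSB rose by 0.32. The other called proteases that rose on that scale were MASP1 (0.41), KLKB1 (0.71), HPN (0.32), F10 (0.26) and F11 (0.18). FURIN (-0.50), HGFAC (-0.46) and C1S (-0.26) fell. The plasminogen activator genes PLAT and PLAU were not called (log2 -0.16 ± 0.17 and 0.02 ± 0.15), nor was prothrombin, F2 (0.12 ± 0.05, adjusted p = 0.0863).

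Of 15 tested cofactors and receptors 5 rose and 1 fell, with a median log2 fold change of 0.01. VTN, vitronectin, an adhesive protein of plasma and matrix, rose by 0.74 on the log2 scale. On that scale the clearance receptors VLDLR and LRP1 rose by 0.94 and 0.31, and the heparan sulphate enzyme HS2ST1 fell by 0.37. A list of inhibitors of other families also holds the carboxypeptidase CPB2 and the non-inhibitory serpin AGT, angiotensinogen, whose symbol does not begin with SERPIN. Of its 28 tested genes 12 rose and 3 fell, with a median log2 fold change of 0.29. On the same scale the pancreatic trypsin inhibitor gene SPINK1 rose by 1.96, the hyaluronan-binding ITIH5 by 1.57, TIMP3, which blocks metalloproteases, by 0.84, AGT by 0.43 and CPB2 by 0.57.

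The same counts were made for the folding and control genes, in log2 fold changes of the mean of the lines, against the same 13% higher and 12.6% lower of all tested genes. Of 19 tested genes for collagen and its folding 7 rose and 3 fell (median log2 fold change 0.09), with SPARC at 0.86, P4HA2 at 0.31, CRTAP at 0.25 and FKBP14 at -0.32, beside the uncalled SERPINH1. Of 15 heat shock genes 0 rose and 2 fell, HSP90AA1 at -0.40 and HSPA4L at -0.25 (median -0.07), and the share that fell was near that of all genes. Of 15 genes of protein quality control in the endoplasmic reticulum, which handles misfolded alpha-1-antitrypsin, 2 rose, EDEM3 at 0.20 and DERL2 at 0.16, and 0 fell (median 0.07). Of 19 hepatic and acute-phase regulators 6 rose and 3 fell (median 0.09), among them SOCS3 at 0.75, NR3C1 at 0.25, FOXA1 at -0.24 and CEBPA at -0.59. Of 15 tested genes of TGF-beta and related signalling 2 rose and 2 fell (median 0.02), with KLF4 at 0.54, TGFBR1 at 0.15, EPAS1 at -0.28 and SMAD7 at -0.26. Several of these counts fell without a single Empty well. Without Empty a, 9 in place of 15 of the list of other inhibitors, 5 in place of 9 of the regulators and 0 of the quality control genes were called. The count over all tested genes also fell there, to 2107 from 3911. Without Empty b, 4 of the regulators were called. Without Empty a or Empty b, 2 of the TGF-beta genes and 0 of the heat shock genes were called, and without Z9 c 4 of the heat shock genes. The quality control count was 4 without Z2 b and 1 without Empty b, Z2 c, Z5 a, Z5 b, Z9 a or Z9 b.

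Wells of a line differed in a repeated way, and the main fit has no term for the well letter. In each of the 4 lines well a had the lowest level of 11 of the 25 serpin genes, among them SERPINA1, SERPINA4, SERPINA10, SERPINA11, SERPINB1, SERPINB6, SERPINB9, SERPIND1, SERPINE2 and SERPINI1, and so did 5.64% of all tested genes. Well a was the highest in each line for 0 of 25 serpin genes and for 3.75% of all genes. For wells b and c the shares of all genes lowest in each line were 1.02% and 1.03%. All 9 labelled wells were above all Empty wells for 9 of 25 serpin genes and for 8.83% of all genes, and below for 0 of 25 and 8.31%.

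**Figure D5:**
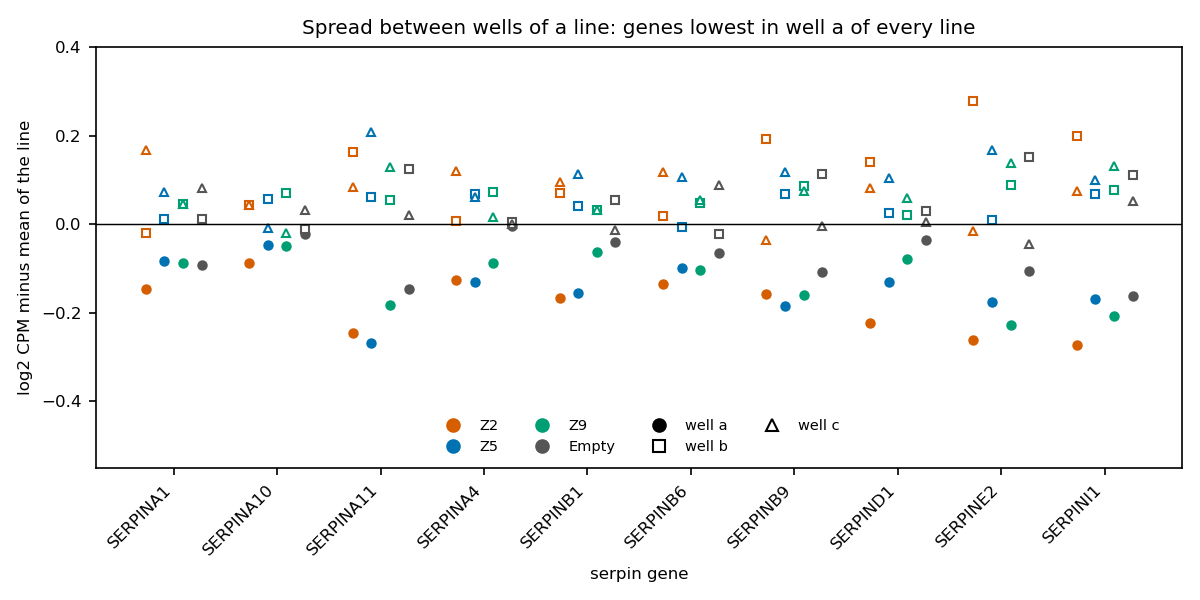
Log2 CPM of each well minus the mean of its line (vertical axis) for 10 serpin genes whose lowest well was well a in each of the 4 lines, coloured by line with a marker per well letter. The genes were chosen by that order, so the place of well a restates the choice, and the picture shows how far apart the wells of a line lie.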

How the data were processed

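RNA sequencing counts of 12 HepG2 wells were used, grouped by their titles into Z2, Z5, Z9 and Empty. The deposited values are whole-number counts per gene symbol, made by the authors with STAR and featureCounts on hg38, per the submitters' processing notes. Versions, annotation and strand setting of that counting were not given in the sources used here.

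Genes were kept with edgeR's filterByExpr, libraries were scaled by TMM, and edgeR 4.0.16 in R 4.3.3 was fitted with a robust quasi-likelihood model of 4 group means to all 12 libraries (8 residual degrees of freedom, common biological coefficient of variation 0.0696). Benjamini-Hochberg adjustment ran over the 15289 tested genes of each comparison, and an adjusted p under 0.05 was a call. The SE of a log2 fold change was taken from its F statistic. Between wells of the same line, chi-square divided by its degrees of freedom was 6.01 to 43, above sampling noise, and each well counted as a replicate. This ratio was 14 to 43 in Z2, 6.01 to 13.8 in Z5, 6.09 to 19.5 in Z9 and 10.4 to 11.5 in Empty. The test was checked on simulated counts. Exon lengths came from GENCODE v29, and positions and promoters from RefSeq GRCh38.p14, with promoters for 27 of the 37 genes.

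The family, its gene lists and the named genes were chosen with earlier results of these data known. Results of 1 serpin gene are not reported here, although it is in the family's totals and counts. Every other serpin gene is named, with values per well where its mean is at least 1 CPM or it is called and the text turns on it, and of each list up to 4 genes with the smallest adjusted p for the mean of the lines, plus partners of the serpins described. Alternatives were DESeq2 1.42.0 size factors and Wald test, no filter beyond 1 count, at least 1 CPM in 3 libraries, a replicate block, fits of only the groups compared, each library left out, and, chosen after seeing the data, wells summed per line.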

Additional observations from a re-analysis of the deposited data

Results flagged for a closer look

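Differences between the labelled lines Z9 and Z2, each tested as a contrast of the 2 lines (edgeR, adjusted over all genes), stood out for 4 serpin genes. SERPINI1 had 28.8 CPM in Z9 and 44.3 in Z2, a log2 difference of -0.624. SERPINB9 had 39.3 CPM in Z9 and 52.7 in Z2, a log2 difference of -0.422. SERPINA7 had 233.4 CPM in Z9 and 284.6 in Z2, a log2 difference of -0.286. SERPINA10 had 35.2 CPM in Z9 and 40.4 in Z2, a log2 difference of -0.2. In each gene the 3 Z9 wells lay below the 3 Z2 wells, an order not counted over all tested genes.

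The SERPINI1 call is lost without Z2 b, Z2 c, Z9 a or Z9 b (adjusted p of 0.0532 to 0.107), and the SERPINB9 call without Z2 b, Z2 c or any Z9 well (0.0572 to 0.131). The SERPINA7 call is lost without Z9 a (0.0712) or Z9 b (0.0607). The SERPINA10 call is lost on leaving out any single well other than Z2 a (0.0584 to 0.161), and without a filter on low counts (0.0634). When only the 2 lines were fitted, 0 of the 4 genes were called (0.0775 to 0.182).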

How the results depend on the processing

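Of 3108 values of single serpin genes under the alternatives, 2949 kept their side of the threshold, 85 called values lost their call, 74 gained one and 0 reversed. Of the 46 calls over the 7 comparisons, 26 stood under every alternative. The replicate letters were not taken as pairing the wells, since not every same-letter pair correlated over 0.1. The 18 pairs lay at -0.101 to 0.173, 5 of them over 0.1, with the 6 pairs of a wells at 0.039 to 0.173. In all, 3 libraries correlated best with their own letter in each other line. That rule does not address a difference shared by the a wells alone. Well a was lowest in each line for 11 of 25 serpin genes and 5.64% of all tested genes. The main fit leaves such a difference in its spread between wells. With the replicate letter as a block, 25 of 175 values of single serpin genes gained a call and 0 lost one. A fit with the replicate block gave 12 serpin calls for Z9 against Empty in place of 7, 12 for Z9 against Z2 in place of 4 and 5 for Z9 against Z5 in place of 0. For all genes the block gave 1512 calls for Z9 against Z2 in place of 790, and 488 for Z9 against Z5 in place of 232. With the block SERPINI1 was called higher in Z5 (0.253, adjusted p = 0.00508), lower in Z9 (-0.217, 0.0125) and higher for the mean (0.146, 0.0286), SERPIND1 higher in Z2 (0.0212), SERPINB9 and SERPINF1 higher in Z9 (0.0344 and 0.0387) and SERPINB1 higher in Z5 and for the mean (0.0424 and 0.0112).

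Fits of only the groups compared gave 11 serpin calls for Z9 against Empty, 0 for Z9 against Z2 and 4 for Z9 against Z5. For all genes these fits gave 2390 calls for Z2 against Empty in place of 3654. The counts against Empty rose to 3317 from 2286 for Z5 and to 3843 from 2941 for Z9. These fits gave 32 for Z9 against Z2 and 664 for Z9 against Z5. They cannot be made for the mean of the lines, which needs every group. The DESeq2 Wald test gave 2 serpin calls for Z9 against Z5, and for all genes 1526 for Z9 against Z2, 504 for Z9 against Z5 and 11 for Z5 against Z2 in place of 1. With wells summed per line, where Empty is 1 unit assumed to vary like the 3 labelled lines, 6 serpin genes in place of 11 and 1016 of all genes in place of 3911 were called for the mean of the lines, with SERPINA1, SERPINA5, SERPINA7, SERPINA12 and SERPINB9 lost. The cause of these shifts was not tested.

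Leaving out each library in turn gave 9 to 14 serpin calls for Z2 against Empty, 7 to 13 for Z5, 5 to 9 for Z9, 9 to 13 for the mean, 0 to 10 for Z9 against Z2, 0 to 3 for Z9 against Z5 and 0 for Z5 against Z2. The Z5 count was 7 without Empty a, Z5 b or Z5 c. The Z9 against Z2 count was 10 without Z2 a, 1 without Z2 b or Z2 c, 0 without Z9 a or Z9 b and 2 without Z9 c, and the Z9 against Z5 count was 1 without Z2 a and 3 without Z2 b. For all genes the ranges were 2130 to 4411 for Z2 against Empty, 1087 to 3267 for Z5, 1720 to 4048 for Z9, 2107 to 4787 for the mean, 75 to 2399 for Z9 against Z2, 37 to 653 for Z9 against Z5 and 1 to 153 for Z5 against Z2. Genes under about 50 counts per line (SERPINA9, SERPINE3, SERPINB9P1) have intervals too wide to show small changes.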
